A study of Caenorhabditis elegans with 16 samples.

Results

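The 10 genes described here are the core of the Ras-MAPK pathway of Caenorhabditis elegans together with 2 of its brakes: sem-5, sos-1, let-60, ksr-1, ksr-2, lin-45, mek-2, mpk-1, gap-3 and lip-1. They were taken by name, and all 10 were found among the 46536 genes of the deposited tables. Of the 10, 9 reached 1 CPM (counts scaled to a common library total, the authors' unit) in at least 2 libraries of a table and were tested. The exception was ksr-1, which is given as levels with no test.

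RNA was sequenced from germline tumor dissected from 1-day-old adults, in 16 libraries: 4 without auxin (0 h, control) and 4 at each of 2 h, 4 h and 48 h of auxin at 1 mM. Every library, controls included, came from animals of the Bristol strain that carried the Notch receptor allele glp-1(ar202), the alleles gld-1(q485) and gld-2(q497), the altered lag-1(oz536oz537) and the transgene ieSi64[gld-1p::tir1::mRuby]. Loss of both gld genes and the activated Notch receptor GLP-1 keep germ cells proliferating, LAG-1 is the transcription factor of Notch signalling, and TIR1 is a plant receptor that with auxin marks degron-tagged proteins for destruction, here made from the germline promoter of gld-1. What was altered in lag-1 is not described in the labels; a degron tag is an inference from auxin and TIR1 being used. No group combined auxin with an unaltered lag-1, and the 48 h treatment was as long as the stated growth of 48 h at 25 °C, so an effect of auxin itself and the stage at first exposure cannot be told apart from the loss of LAG-1.

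In this pathway an activated receptor recruits the adaptor SEM-5 and the exchange factor SOS-1, which loads the small GTPase LET-60 (RAS) with GTP. LET-60 then activates the kinase cascade LIN-45 (RAF), MEK-2 (MEK) and MPK-1 (ERK), held together by the KSR scaffolds. In the worm germline, active MPK-1 drives progress through pachytene and the growth and maturation of oocytes. LIP-1 is a dual-specificity phosphatase that removes the activating phosphates from MPK-1 and keeps it low in the distal germline. The lip-1 gene is a reported target of Notch signalling, in the vulva and in the germline, so the design asks whether its transcript follows that of the best-known germline Notch targets, lst-1 and sygl-1, and whether the transcripts of the kinase cascade move at the same time.

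The libraries held between 17760706 and 33888940 reads, and 3 reads in a library corresponded to between 0.0885 and 0.169 CPM. All 12 germline markers reached 1 CPM in every group, with summed levels of 1411 to 2803 CPM in controls, 2518 to 2701 CPM at 2 h and 1867 to 2933 CPM at 48 h, so germline transcripts were present throughout, as the label says. In the 10-library table the summed level of 11 spermatogenesis markers was at most 2.97 CPM, that of 12 intestine markers between 17.02 and 46.0 CPM, and that of 8 neuron markers between 24.7 and 52.2 CPM. The 8 muscle markers summed to 48.6 to 99.9 CPM at 48 h and 41.8 to 71.6 CPM in controls, and the 10 somatic gonad markers to 1219 to 2314 CPM at 48 h and 873 to 2590 CPM in controls. These are bulk samples, so fewer cells of a type and less RNA per cell cannot be told apart. The submitters call the 4 replicates of a group biological, without saying whether they came from separate cultures, so the p-values cover only the spread between these libraries.

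The longer members of the pathway were low in 3 of the 10 libraries of the table that holds the controls. Ribosomal RNA took 53.3% of control 1, 51.7% of control 3 and 44.9% of 48 h library 1, and long transcripts were low in these libraries. Controls 1 and 3 lay below controls 2 and 4 by a median of 0.03 on the log2(CPM + 1) scale for the shortest of 5 length classes of coding genes and by 1.04 for the longest. Most members followed the same gradient. The difference was -1.22 for sos-1, the longest member (5239 bp of exon), -1.03 for gap-3, -1.02 for lin-45 and -0.99 for ksr-2. For mpk-1 it was -0.96, for lip-1 -0.74, for mek-2 -0.71 and for let-60 (1385 bp) -0.67. The scarce sem-5 (1456 bp, -0.04) and the scarcest member, ksr-1 (2610 bp, -0.11), were nearly level on this scale. The added 1 CPM shrinks differences of such low genes, and ksr-1 held 9 to 17 reads in the controls. Whether ksr-1 departed from the gradient thus cannot be read from its value. Fold changes below are on the deposited scale unless another scale is named; for some members they are also given after centring each library on its median gene, or after removing the trend of each library on gene length.

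**Figure D1:**
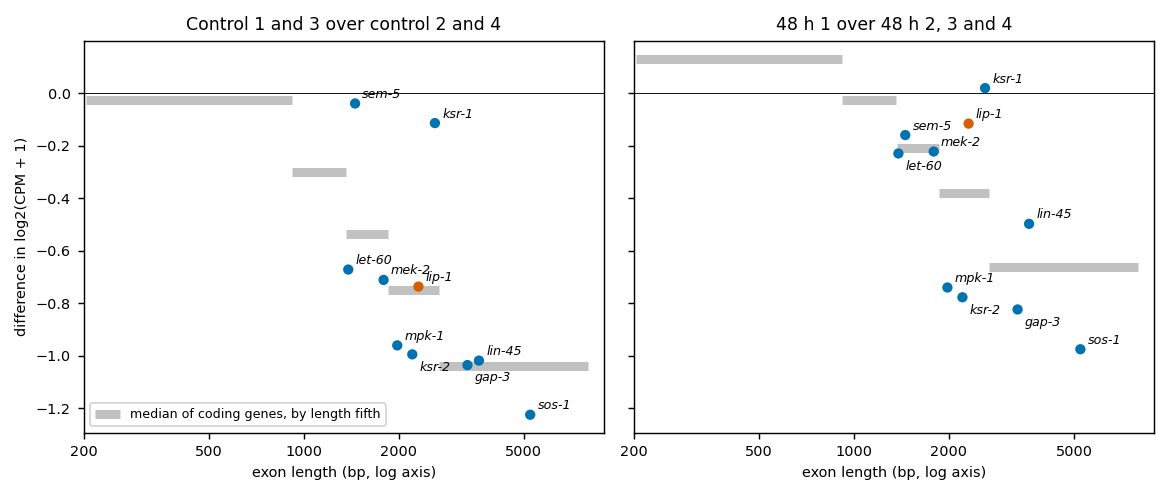
Differences in log2(CPM + 1) between libraries of 1 group against exon length in bp (log axis), for controls 1 and 3 over controls 2 and 4 (left) and for 48 h library 1 over 48 h libraries 2, 3 and 4 (right). Points are the 10 genes, with lip-1 in orange, and grey bars are medians of coding genes in 5 classes of length, the last one drawn only in part; sos-1, the longest member, lies lowest in both panels, at -1.22 and -0.97, while sem-5 lies at -0.04 and -0.16.

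Levels per length of exon placed the members in 3 tiers (CPM per kb, 10-library table). In controls the top tier was mek-2 at 27.7 ± 7.89, let-60 at 23.3 ± 6.52 and mpk-1 at 17.8 ± 6.79, and the middle tier was sos-1 at 9.54 ± 4.58, ksr-2 at 5.98 ± 2.48, lin-45 at 5.80 ± 2.38 and gap-3 at 5.27 ± 2.26 (SD, n = 4). Neighbours in this order down to gap-3 had overlapping ranges across the controls. Within each control library, however, mek-2, let-60, mpk-1 and sos-1 stood in this order. All of them lay above ksr-2, lin-45 and gap-3, whose own order varied between controls. The lowest tier was lip-1 at 1.37 ± 0.551, sem-5 at 0.714 ± 0.111 and ksr-1 at 0.145 ± 0.0530, with lip-1 and sem-5 overlapping. The phosphatase transcript was thus scarce beside that of its substrate: lip-1 held 24 to 156 reads per library in this table. At 48 h the order of lip-1 and sem-5 was the other way round: sem-5 stood at 1.45 ± 0.1503 and lip-1 at 0.650 ± 0.0989 CPM per kb, and their ranges did not overlap. At 2 h (n = 2) lip-1 lay above sem-5, at 1.76 ± 0.425 against 0.875 ± 0.315 CPM per kb.

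**Figure D2:**
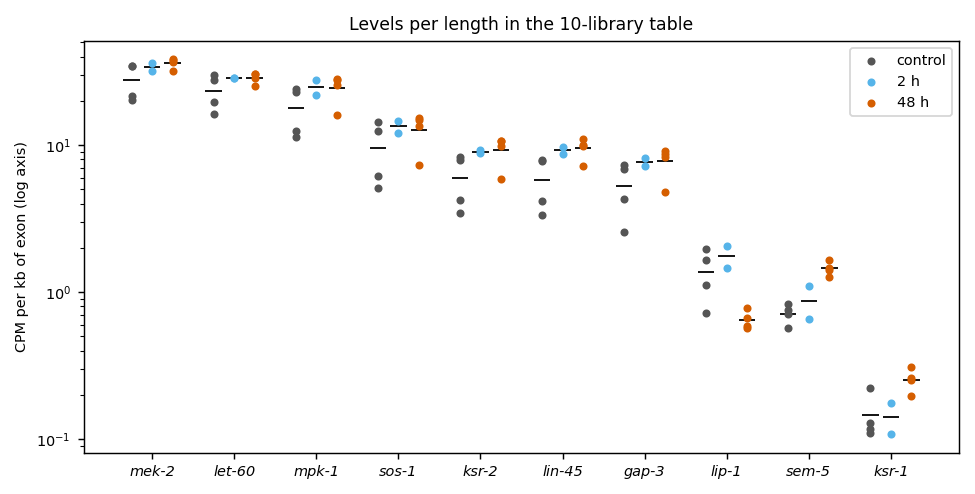
Levels of the 10 genes in CPM per kb of exon (log axis) in the 10-library table, with controls, 2 h and 48 h from left to right within each gene, points for libraries and bars for group means. The genes run from mek-2 at 27.7 to ksr-1 at 0.145 in controls, and the mean of sem-5 (1.45) lies above that of lip-1 (0.650) at 48 h and below it in controls and at 2 h.

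The first comparison asked what differed after 48 h of auxin. The MPK-1 phosphatase transcript lip-1 was the one tested member with a lower mean at 48 h than in controls, and the receptor adaptor transcript sem-5 was the one member that rose by the main test. All other tested members had higher means at 48 h and did not pass. On the deposited scale limma called 1 of the 9 tested members at an adjusted p under 0.05 (1 up, 0 down), where 10% of the 7684 genes tested were called and 7.34% were called up (564 up and 208 down; 287 up and 549 down after centring). The median log2 fold change of the 9 was 0.49, where that of all genes was 0.24, and 0.21 after centring, where that of all genes was -0.04. Without control 1, control 3 and 48 h library 1, 5 members passed, where 23.9% of genes did: lin-45 (0.38), ksr-2 (0.35), gap-3 (0.28) and sem-5 (0.63) rose and lip-1 fell (-1.02, limma adjusted p = 0.000349). Of the cell type markers, 1 of 12 tested germline markers rose (him-3), as did 2 of 5 somatic gonad markers (inx-8 and inx-9), 1 of 6 muscle markers, 1 of 5 intestine markers and 1 of 5 epidermis markers, while 1 of 5 neuron markers fell; the part of such shifts in the values below was not tested.

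The sem-5 transcript (WBGene00004774, chromosome X, 7959453 to 7961723 in WBcel235) encodes the GRB2-type adaptor that links receptor tyrosine kinases to SOS-1. It was at 1.86, 2.07, 2.39 and 2.12 CPM in 48 h libraries 1 to 4, against 1.21, 1.03, 0.825 and 1.10 CPM in controls 1 to 4. Every 48 h library lay above every control, as was so, in that direction, for 14.9% of genes. The counts behind these values were low, with at most 68 reads in a library. Its log2 fold change was 0.61 ± 0.12 (SE), with a limma adjusted p of 0.0121. The rise did not pass after centring (0.33, limma adjusted p = 0.267), with the length trend removed (0.34, 0.166) or with edgeR on recovered reads (0.74, 0.0647). It passed in each of the 10 fits that left out 1 library.

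The sos-1 transcript (WBGene00004947, chromosome V, 4516944 to 4549291) encodes the exchange factor for LET-60. It was at 38.2, 70.3, 77.3 and 80.7 CPM at 48 h, against 26.8, 75.5, 32.4 and 65.2 CPM in controls. The groups overlapped, with controls 1 and 3 and 48 h library 1, the same 3 libraries that hold the most ribosomal RNA, as the 3 lowest. The log2 fold change was 0.48 ± 0.35 (SE; limma adjusted p = 0.350), it was 0.05 with the length trend removed, and it turned to -0.13 without controls 1 and 3.

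The let-60 transcript (WBGene00002335, chromosome IV, 11688227 to 11691088) encodes RAS itself. It was at 35.2, 42.5, 42.4 and 39.6 CPM at 48 h, against 22.5, 38.2, 27.03 and 41.6 CPM in controls. Again controls 1 and 3 were the 2 lowest values and the other controls lay among the 48 h libraries. Its log2 fold change was 0.34 ± 0.18 (SE; limma adjusted p = 0.241). After centring it was 0.05, with a 95% interval of -0.11 to 0.22, and without controls 1 and 3 it was -0.00037.

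Of the scaffolds, ksr-2 (WBGene00002240, chromosome I, 12047342 to 12059798), the KSR known to act in the germline, was at 13.1, 21.9, 23.7 and 23.7 CPM at 48 h, against 7.65, 18.4, 9.42 and 17.4 CPM in controls. The 3 highest values were 48 h libraries, but 48 h library 1 lay within the control range. Its log2 fold change was 0.65 ± 0.28 (SE; limma adjusted p = 0.156). The other scaffold gene, ksr-1 (WBGene00002239, chromosome X, 8275169 to 8283301), known from vulval induction, stayed under 1 CPM in all 16 libraries, with 6 to 23 reads in each. It was at 0.676, 0.509, 0.809 and 0.655 CPM at 48 h, against 0.335, 0.289, 0.306 and 0.584 CPM in controls, and the groups overlapped through control 4.

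The lin-45 transcript (WBGene00003030, chromosome IV, 6742537 to 6748572) encodes RAF, the first kinase of the cascade. It was at 26.0, 35.5, 36.2 and 39.8 CPM at 48 h, against 12.04, 28.1, 14.98 and 28.4 CPM in controls. Only 48 h library 1 fell within the control range. The log2 fold change of 0.77 ± 0.26 (SE) did not pass (limma adjusted p = 0.0897). It was smaller but passed after centring (0.49, limma adjusted p = 0.04998) and with the length trend removed (0.37, 0.00178), and was 0.26 without controls 1 and 3 (limma adjusted p = 0.417). It also passed without control 2 (0.94, limma adjusted p = 0.0420) or without control 4 (0.94, 0.0471). Over 22 alternatives it stayed positive, between 0.26 and 0.94, with adjusted p from 0.00178 to 0.417 and 7 past the threshold.

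The mek-2 transcript (WBGene00003186, chromosome I, 3005403 to 3013448) encodes the kinase that activates MPK-1. It was at 57.7, 65.6, 68.2 and 68.7 CPM at 48 h, against 36.5, 61.7, 38.4 and 62.2 CPM in controls. Outside the 3 libraries that stand apart, the 48 h values were 65.6 to 68.7 and the control values 61.7 and 62.2. Its log2 fold change was 0.42 ± 0.19 (SE; limma adjusted p = 0.172), and 0.14 after centring. Exons of mek-2 share 410 bp with Y54E10BL.3 on the opposite strand, and no source used here says whether the counting used strand, so this level may hold reads of both.

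The mpk-1 transcript (WBGene00003401, chromosome III, 4216763 to 4228108) encodes ERK, the substrate of LIP-1. It was at 31.8, 50.5, 56.1 and 54.9 CPM at 48 h, against 22.6, 45.7, 24.6 and 47.9 CPM in controls. The groups overlapped. Its log2 fold change was 0.49 ± 0.27 (SE; limma adjusted p = 0.2498), and 0.21 after centring, with a 95% interval of -0.13 to 0.55. The gap-3 transcript (WBGene00021238, chromosome I, 1988246 to 2010525) encodes a GTPase-activating protein that turns LET-60 off. It was at 15.9, 27.7, 29.0 and 30.0 CPM at 48 h, against 8.52, 24.2, 14.1 and 22.9 CPM in controls. Here too 48 h library 1 alone fell within the control range, and the log2 fold change was 0.59 ± 0.31 (SE; limma adjusted p = 0.223).

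The lip-1 transcript (WBGene00003043, chromosome IV, 6842958 to 6846011; 2314 bp of exon) was at 1.35, 1.31, 1.55 and 1.81 CPM in 48 h libraries 1 to 4, which are 24, 36, 44 and 47 reads. In controls 1 to 4 it was at 1.68, 4.55, 2.60 and 3.81 CPM, with at least 50 reads in each. The groups overlapped only through 48 h library 4 and control 1, the control with the most ribosomal RNA. The means were 1.505 ± 0.229 CPM at 48 h and 3.16 ± 1.28 CPM in controls (SD, n = 4 each). On the deposited scale the log2 fold change of -0.68 ± 0.21 (SE) did not pass, with a limma adjusted p of 0.0649. Its fold was nevertheless far down the distribution: 150 of the 7684 genes tested, or 1.95%, had a lower one. Exons of lip-1 share 71 bp with the noncoding RNA gene C05B10.17 on the opposite strand, so the lip-1 level may hold reads of both.

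On other scales lip-1 fell at 48 h. The log2 fold change was -0.96 after centring (limma adjusted p = 0.00106) and -1.04 with the length trend removed (0.000281), and in these fits 10.9% and 19.8% of genes were called. On the recovered reads it was -1.29 with edgeR (adjusted p = 0.00277) and -1.29 with DESeq2 (adjusted p = 2.56e-06), where edgeR called 11.6% of genes and DESeq2 16.3%. On the deposited scale, of the 10 fits that left out 1 library only that without control 1 passed (-0.88, limma adjusted p = 0.0136). Without controls 1 and 3 the fold was -1.05 (limma adjusted p = 0.00648), where 7.08% of genes were called. Over 21 alternatives it was negative in each, between -1.29 and -0.52, with adjusted p from 2.56e-06 to 0.151, and 8 passed the threshold.

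**Figure D3:**
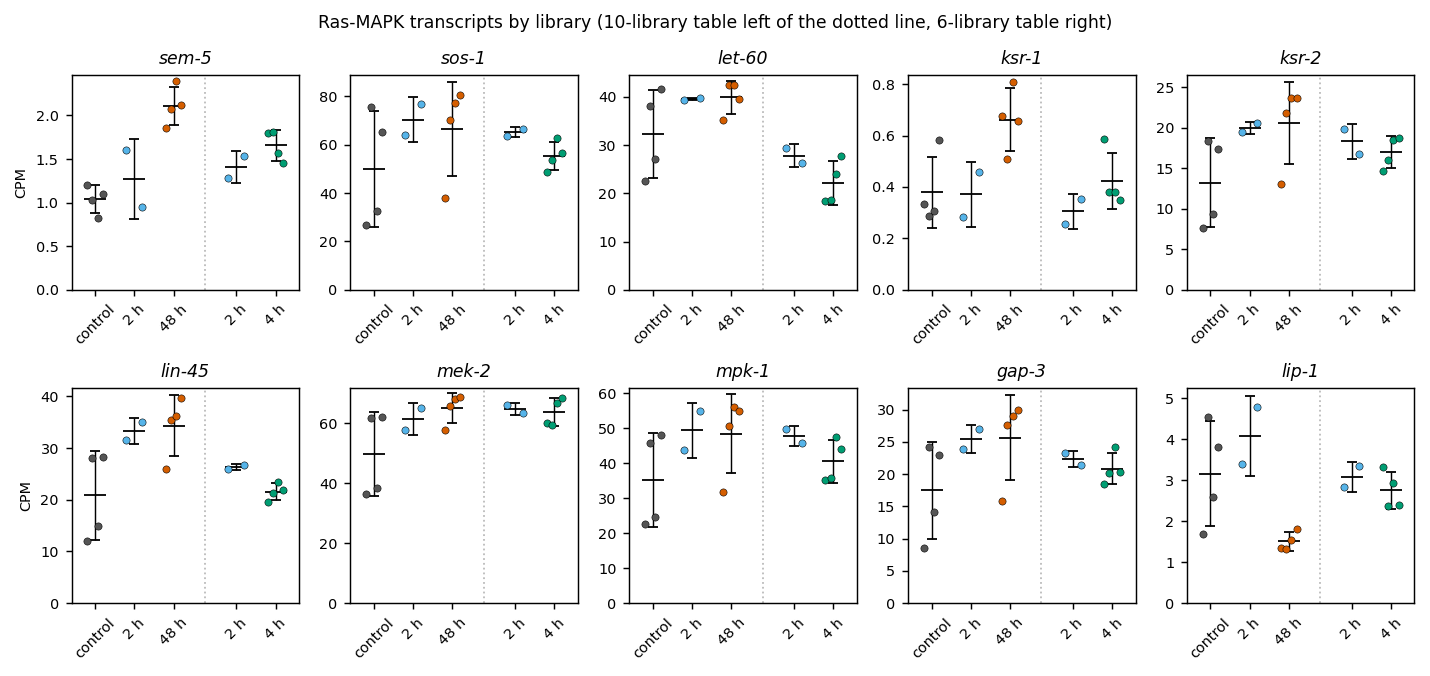
Levels in CPM of the 10 genes, 1 panel each, with a point for each library, a bar for the group mean and whiskers of 1 SD; control, 2 h and 48 h of the 10-library table stand left of the dotted line, and 2 h and 4 h of the 6-library table right of it. In the lip-1 panel the 48 h points lie at 1.31 to 1.81, with control 1 (1.68) the one control among them; in the sem-5 panel the 48 h points (1.86 to 2.39) lie above every control.

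A ratio within a library does not depend on how the library was scaled, and mpk-1 is of like length to lip-1 (1982 bp of exon). The 2 transcripts did not shift alike in the libraries rich in ribosomal RNA, however. On the log2(CPM + 1) scale, 48 h library 1 differed from the other 48 h libraries by -0.74 for mpk-1 and -0.12 for lip-1. Controls 1 and 3 differed from controls 2 and 4 by -0.96 and -0.74. The ratio may thus still hold part of these library differences. The lip-1 level was 4.25, 2.59, 2.76 and 3.30% of the mpk-1 level in 48 h libraries 1 to 4, against 7.43, 9.97, 10.6 and 7.95% in controls 1 to 4. Every 48 h library lay below every control, which was so for 10.8% of genes set against mpk-1 in this way. The means were 3.22% at 48 h and 8.98% in controls. A change of this ratio shows that the 2 transcripts differed unequally and says nothing of which of them was steady.

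The second comparison asked what differed after 2 h. No member was called, as no gene was: limma called 0% of 7684 genes, with 429 at an unadjusted p under 0.05, edgeR called 0 and DESeq2 called 29. The lip-1 level was 3.39 and 4.78 CPM in 2 h libraries 1 and 2, the first within and the second above the control values of 1.68 to 4.55 CPM. The log2 fold change was 0.33 ± 0.26 (SE), with a 95% interval of -0.24 to 0.90 (limma adjusted p = 0.520). After centring it was 0.04, with an interval of -0.31 to 0.38, and its sign changed to -0.05 with the length trend removed and to -0.04 without controls 1 and 3.

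The Notch target lst-1, which encodes a stem cell regulator, is set beside lip-1 as a reference for timing. It was at 17.4 and 18.8 CPM at 2 h, against 38.8, 89.5, 35.0 and 57.1 CPM in controls 1 to 4, so both 2 h libraries lay below every control, as did those of 0.976% of genes. Its log2 fold change at 2 h was -1.46, with a 95% interval of -2.15 to -0.76 that lies wholly below that of lip-1, but it did not pass on the deposited scale (limma adjusted p = 0.520) and passed after centring (-1.75, 0.0282). In 48 h libraries 1 to 4 lst-1 was at 13.9, 18.4, 18.9 and 17.3 CPM, near its 2 h level. Relative to mpk-1, lst-1 was at 172, 196, 142.2 and 119.1% in controls, 39.7 and 34.2% at 2 h and 43.5, 36.5, 33.7 and 31.6% at 48 h, whereas lip-1 was at 7.73 and 8.70% at 2 h, within the control range. The other reference target, sygl-1, had log2 fold changes of -2.30 at 2 h and -2.17 at 48 h. Its fall at 2 h was not called on the deposited scale. Apart from the fits that left out 1 library, it passed in 2 of 12 alternatives at 2 h and in 12 of 12 at 48 h against control. Whether the time courses of lip-1 and of these genes differ was not put to a test of its own.

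**Figure D4:**
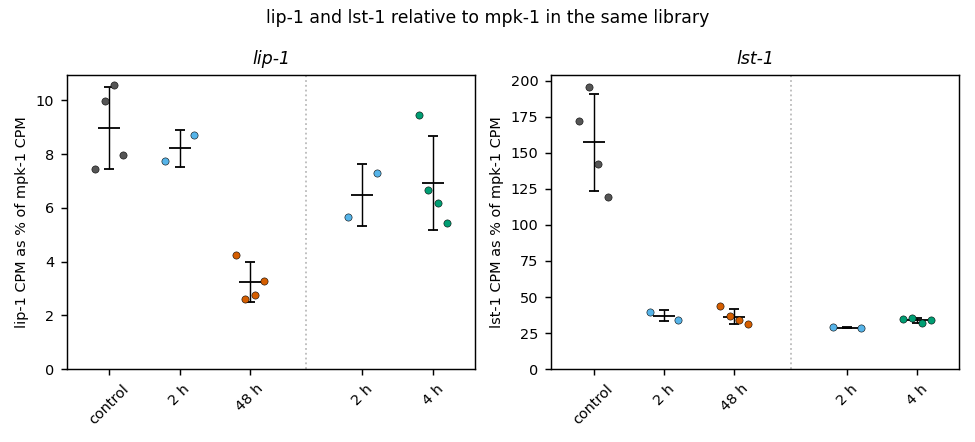
The lip-1 level (left) and the lst-1 level (right) as a percentage of the mpk-1 level in the same library, with points for libraries, a bar for the mean and whiskers of 1 SD, and the dotted line between the tables. At 48 h lip-1 lies at 2.59 to 4.25%, below the 2 h values of 7.73 and 8.70% in the same table, while lst-1 is at 34.2 to 39.7% at 2 h and at 31.6 to 43.5% at 48 h.

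For the kinase cascade and its upstream members the 2 h values overlapped the control range, except for RAF and 1 scaffold. The values at 2 h were 31.5 and 35.1 CPM for lin-45, 19.5 and 20.5 CPM for ksr-2, and these were the 2 of 10 members whose 2 h libraries lay above every control, where 17.8% of genes did so. The lin-45 log2 fold change was 0.74 ± 0.32 (SE; limma adjusted p = 0.520) and that of ksr-2 was 0.65 ± 0.34 (SE; 0.520); after centring they were 0.44 and 0.35. For the other kinases, the values were 57.6 and 65.1 CPM for mek-2 and 43.8 and 54.9 CPM for mpk-1, both straddling the highest control. RAS and its regulators were at 39.4 and 39.8 CPM for let-60, 63.9 and 77.02 CPM for sos-1 and 23.9 and 27.01 CPM for gap-3. The adaptor sem-5 was at 1.60 and 0.949 CPM and ksr-1 at 0.282 and 0.459 CPM, and for both 1 of the 2 libraries lay within the control range. The sem-5 fold was 0.15 on the deposited scale and -0.15 with centring, so it had no stable sign.

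The third comparison set 48 h against 2 h within the same table, where none of the controls enters the fold. The level of lip-1 was lower in all 4 libraries at 48 h (1.31 to 1.81 CPM) than in both at 2 h (3.39 and 4.78 CPM), and 14.8% of genes were separated in that direction. The fold was -1.01 ± 0.26 on the log2 scale (SE; 95% interval -1.58 to -0.44), and 103 of 7684 genes, or 1.34%, had a lower one. It did not pass on the deposited scale (limma adjusted p = 0.0724), where 2.85% of genes were called and 0 of the 9 tested members. It passed after centring (-0.998, limma adjusted p = 0.00595), with the length trend removed (-0.98, 0.00290), with edgeR (-1.44, 0.00613) and with DESeq2 (-1.44, 2.17e-05), fits that called 4.15%, 7.92%, 4.93% and 7.47% of genes. It passed too without controls 1 and 3 (4.97% of genes called) and without these and 48 h library 1 (20.4% called), where sem-5 also rose (0.50, limma adjusted p = 0.0354). It also passed without control 1 (limma adjusted p = 0.0169) or without control 2 (0.0410), which enter only the estimate of the spread. Over 21 alternatives it lay between -1.44 and -0.81 with adjusted p from 2.17e-05 to 0.581, and 9 passed. The fold nearest 0, -0.81, came without 2 h library 2, which leaves 1 library at 2 h.

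Between 2 h and 48 h the rest of the pathway lay close together. Log2 fold changes of 48 h over 2 h were between -0.13 (sos-1) and 0.08 (mek-2) for the 7 tested members other than lip-1 and sem-5, and 0.46 ± 0.15 (SE) for sem-5 (limma adjusted p = 0.154). Their intervals are wide on the deposited scale: for mpk-1 the fold was -0.05, with a 95% interval of -0.80 to 0.69. With the length trend removed the mpk-1 interval was -0.34 to 0.26 and that of mek-2 was -0.04 to 0.23. The sem-5 and ksr-1 libraries at 48 h lay above both 2 h libraries, as did those of 12.5% of genes.

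**Figure D5:**
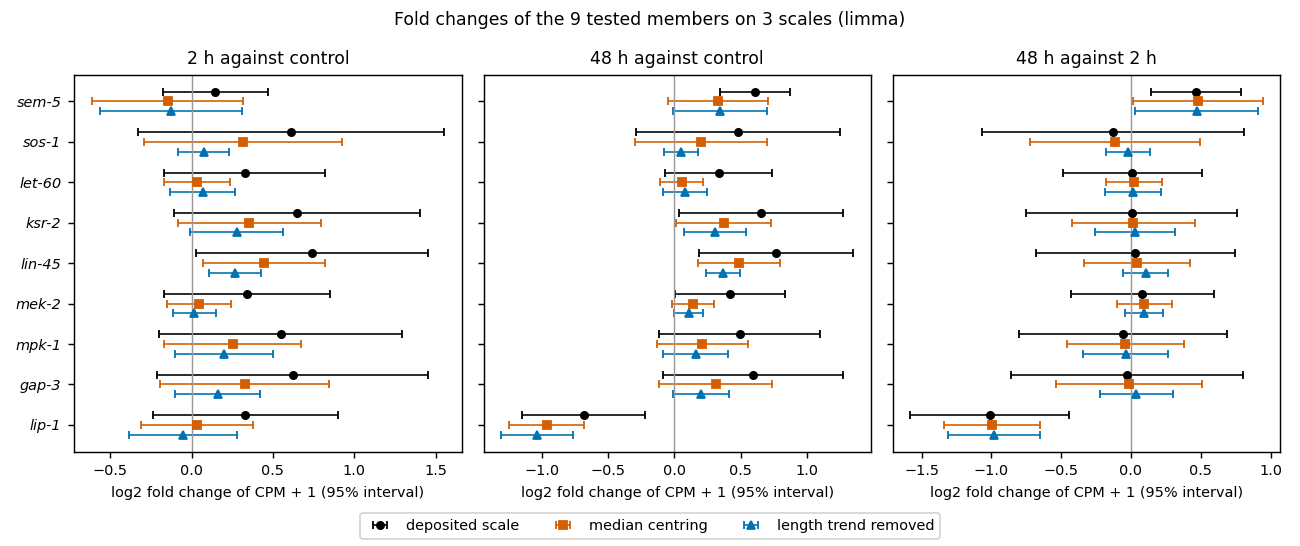
Log2 fold changes of CPM + 1 of the 9 tested members with 95% intervals from limma, on the deposited scale (black), after median centring (orange) and with the length trend removed (blue), for 2 h against control, 48 h against control and 48 h against 2 h. At 48 h the lip-1 interval lies below 0 on all 3 scales (-0.68, -0.96 and -1.04 against control), while at 2 h it includes 0 (0.33, 0.04 and -0.05).

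The fourth comparison, 4 h against 2 h, came from the other table, which holds no control. No member was called, where limma called 0.384% of 7301 genes (28 genes). The lip-1 level was 3.31, 2.38, 2.92 and 2.40 CPM in 4 h libraries 1 to 4, against 2.82 and 3.33 CPM in 2 h libraries 3 and 4. The groups overlapped, and the log2 fold change was -0.12 ± 0.14 (SE), with a 95% interval of -0.44 to 0.19 (limma adjusted p = 0.689). Relative to mpk-1, lip-1 was at 9.46, 6.68, 6.17 and 5.45% at 4 h and 5.66 and 7.30% at 2 h. Over 15 alternatives the fold of lip-1 stayed between -0.21 and -0.03 and never passed.

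RAF and the exchange factor were the 2 members whose 4 h and 2 h libraries did not overlap. The lin-45 level was 19.6, 21.3, 23.4 and 21.9 CPM at 4 h, against 26.0 and 26.8 CPM at 2 h, and that of sos-1 was 48.7, 53.7, 62.7 and 56.7 CPM at 4 h, against 63.8 and 66.7 CPM at 2 h. For both genes every 4 h library lay below both 2 h libraries, which was so for 24% of genes, so the 2 of 10 members are near the background. Their log2 fold changes were -0.28 ± 0.09 (SE; limma adjusted p = 0.203) and -0.24 ± 0.09 (SE; 0.280). The let-60 level was 18.3, 18.6, 24.0 and 27.7 CPM at 4 h, against 29.5 and 26.2 CPM at 2 h (log2 fold change -0.33 ± 0.15, SE; limma adjusted p = 0.312). The mpk-1 level was 35.0, 35.6, 47.4 and 44.0 CPM at 4 h, against 49.8 and 45.6 CPM at 2 h. The mek-2 level of 59.4 to 68.4 CPM at 4 h enclosed its 2 h values of 66.1 and 63.3 CPM. The gap-3, ksr-2 and sem-5 groups overlapped too, with folds of -0.10, -0.11 and 0.14.

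Lists of other genes of the pathway were read against the 10% of all genes called at 48 h against control (7.34% up), and single calls in lists of this size are near that share. Of the genes upstream of Ras, 1 of 9 tested passed, sem-5 itself. Of the Ras, RAF, MEK and ERK module with its scaffolds, 1 of 14 tested passed: rap-2, which encodes a RAP-type small GTPase, at 14.4 ± 1.11 CPM at 48 h and 9.48 ± 1.21 CPM in controls (SD, n = 4 each; log2 fold change 0.56, limma adjusted p = 0.0124). Of the negative regulators, 1 of 9 tested passed: sli-1, which encodes a CBL-type ubiquitin ligase that restrains receptor signalling, at 3.34 ± 0.646 CPM at 48 h and 1.42 ± 0.570 CPM in controls (log2 fold change 0.86, limma adjusted p = 0.0125). None of the 13 tested transcription factors, substrates and effectors of MPK-1 passed. The median fold of these 4 lists was 0.24 to 0.59, where that of all genes was 0.24, and the calls of single genes moved with the scale: after centring rap-2 and sem-5 no longer passed, sli-1 still did (0.58), and lin-3 (0.39), which encodes the EGF-type ligand, passed with lin-45. The 4 lists gave 0 calls on the deposited scale at 2 h against control, at 48 h against 2 h and at 4 h against 2 h.

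Lateral signalling is the Notch signalling between vulval precursor cells in which lip-1 and several other targets were named. Of 6 tested targets, 1 fell at 48 h against control on the deposited scale, lst-1 (log2 fold change -1.54, limma adjusted p = 0.00610), and 0 rose, where 208 of 7684 genes fell and 564 rose. After centring, where 549 genes fell and 287 rose, lst-1 (-1.82) and lip-1 (-0.96) fell and lst-4, which encodes a sorting nexin, rose (0.52, limma adjusted p = 0.0208). Its levels were 70.6 ± 13.9 CPM at 48 h and 41.2 ± 13.9 CPM in controls (SD, n = 4 each).

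The genes most like lip-1 were found by correlation over the 10 libraries of control, 2 h and 48 h, on centred log2 values, among the 5512 genes averaging at least 5 CPM. Because these libraries share a table and its scaling, the correlations are a description. The 5 highest were kel-8 (r = 0.98), which encodes a kelch-repeat protein, spe-5 (0.97), a subunit of the vacuolar proton pump, arrd-13 (0.97), an arrestin-domain gene, nekl-1 (0.97), a NIMA-related kinase gene, and Y22D7AL.9 (0.97). Their mean levels had the order of lip-1, which follows from choosing them by correlation over these same libraries. The means were 6.54, 9.18 and 2.74 CPM for kel-8 and 28.5, 34.8 and 16.8 CPM for arrd-13 in control, 2 h and 48 h libraries. The 5 lowest were spl-1, F13D12.5, arf-1.2, cht-3 and Y106G6H.14, all at r = -0.96. Over the 6 libraries of the other table only spe-5 among the 5 highest kept a positive correlation with lip-1 (r = 0.70). The others had r of -0.05 (arrd-13), -0.26 (Y22D7AL.9), -0.45 (kel-8) and -0.91 (nekl-1), so they did not follow lip-1 there. The Notch targets were less like lip-1 over the 10 libraries, with r = 0.64 for lst-1 and 503 genes above it, and r = 0.59 for sygl-1 and 605 genes above it. Over the 6 libraries of the other table r was -0.51 for lst-1 and -0.84 for sygl-1. Of the 7 members that average at least 5 CPM, sos-1 (r = -0.03) was closest to lip-1 and mek-2 (-0.55) farthest, and mpk-1 stood at -0.18.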

How the data were processed

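The authors deposited, for each gene, a signal that they name CPM. Of the 2 tables, the first covers 10 libraries (controls, 48 h, and replicates 1 and 2 of 2 h) and the second 6 (4 h, and replicates 3 and 4 of 2 h). Per the labels' protocols, total RNA was extracted with Trizol and ribosomal RNA was depleted. The submitters' processing notes list limma, edgeR, featureCounts 1.4.5, Subread and STAR 2.0.4b but no settings, and no source used here gives a genome build, annotation or strand setting. Repeated lines (462 in each table) were dropped, which left 46536 genes. Every value was a whole multiple of 1 read (100% of values, tolerance 0.1 read), so whole reads were recovered. The depths given follow from the CPM of 1 read in each library. The reads of the genes kept sum to 99.79 to 99.91% of these depths. The level that 3 reads correspond to covers counting error only, whereas the 95% intervals of fold changes are limma's and rest on the spread between libraries. No 2 libraries of a group agreed within sampling noise (lowest chi-square per degree of freedom 4.00).

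Each table was fitted on its own with limma 3.58.1 (R 4.3.3, mean-variance trend) on log2(CPM + 1), 2-sided, over all genes with at least 1 CPM in at least 2 libraries, with Benjamini-Hochberg adjustment over all of them and a threshold of 0.05. Fold changes on this scale understate the change of low genes. Whether the tables are batches is not given, so levels were compared within a table. Centring used genes of at least 10 CPM. The alternatives were other pseudocounts (0.5 and 0.1) and filters, centring, removal of a length trend, a replicate block, no mean-variance trend, edgeR 4.0.16 with TMM scaling and DESeq2 1.42.0 on the recovered reads, and leaving out libraries. The limma and edgeR fits of 48 h against control were first tried on simulated counts that held no length trend. DESeq2, centring and removal of the length trend were not tried in this way. For coordinates and exon lengths, 46363 gene IDs were matched to WBcel235 (Ensembl 115), which may differ from the authors' annotation. The genes, the 6 pathway lists, the 7 marker lists and the left-out libraries were chosen with earlier results of these data known. Every member was named in every comparison; from each list the called genes were named, at most 4 per comparison, and the genes most and least like lip-1 were the 5 at each end.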

Additional observations from a re-analysis of the deposited data

Results flagged for a closer look

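Of 30 groups of 4 libraries searched, 1 for each gene and group, 3 held a library far from the other 3, and chance flags about 1 in 20 such groups. The gap-3 level was 15.9 CPM in 48 h library 1 and 27.7 to 30.0 CPM in the other 48 h libraries; this library holds more ribosomal RNA and fewer reads of long transcripts than the rest of its group, and the part of this in the gap-3 value was not tested. The ksr-1 level was 0.584 CPM in control 4 and 0.289 to 0.335 CPM in the other controls. It was 0.585 CPM in 4 h library 1 and 0.350 to 0.381 CPM in the other 4 h libraries. These ksr-1 values rest on 17 and 12 reads.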

How the results depend on the processing

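Depth limits the scarce members most: lip-1, sem-5 and ksr-1 rest on 6 to 156 reads per library, and leaving out 1 of 2 libraries at 2 h leaves a lone library that is assumed to vary like the other groups. The count of genes called at 48 h against control (772) was 383 with a filter of 5 CPM, 1416 with the length trend removed, 1255 with DESeq2 and 1835 without control 1, control 3 and 48 h library 1. The count of members called there (1) was 0 with the filter of 5 CPM, which removes sem-5 and lip-1, 2 with centring, 2 with the length trend removed, 3 with DESeq2, 2 without controls 1 and 3 and 5 without all 3 libraries (sem-5, lin-45, ksr-2 and gap-3 up and lip-1 down). At 2 h against control the count of genes (0) was 1 with centring, 5 with the length trend removed, 29 with DESeq2 and 27 without the 3 libraries. At 48 h against 2 h the count of genes (219) was 42 with the filter of 5 CPM, 567 with the length trend removed, 379 with edgeR, 574 with DESeq2, 382 without controls 1 and 3 and 1565 without the 3 libraries, and that of members (0) was 1 with centring, the length trend removed, edgeR, DESeq2 and without controls 1 and 3, each time lip-1, and 2 without the 3 libraries. At 4 h against 2 h the count of genes (28) was 9 with no filter, 165 with centring, 279 with the length trend removed, 10 without the mean-variance trend, 233 with edgeR and 338 with DESeq2, and no alternative called a member.

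Leaving out 1 library at a time gave 339 to 1056 genes and 1 to 2 members at 48 h against control, 39 to 281 genes and 0 to 1 members at 48 h against 2 h, and 6 to 250 genes at 4 h against 2 h. Log2 fold changes that took both signs in these fits ranged, at 48 h against 2 h -0.22 to 0.13 for mpk-1, -0.26 to 0.11 for sos-1, -0.11 to 0.18 for gap-3, -0.14 to 0.0099 for lst-1, -0.021 to 0.067 for let-60, -0.073 to 0.20 for ksr-2, -0.18 to 0.45 for sygl-1, -0.047 to 0.15 for lin-45 and -0.0042 to 0.17 for mek-2; at 2 h against control -0.062 to 0.35 for sem-5; at 4 h against 2 h -0.059 to 0.0075 for mek-2, -0.22 to 0.0088 for ksr-2, -0.082 to 0.055 for lst-1 and -0.11 to 0.11 for sygl-1.

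On the log2 scale, small fold changes changed sign. At 2 h against control, folds that took the other sign were -0.15 for sem-5 with centring, -0.054 for lip-1 and -0.13 for sem-5 with the length trend removed, -0.021 for sem-5 with edgeR, -0.020 for sem-5 with DESeq2, -0.039 for lip-1, -0.017 for mek-2, -0.0097 for let-60 and -6.9e-05 for sos-1 without controls 1 and 3, and -0.039 for lip-1, -0.017 for mek-2, -0.0097 for let-60 and -6.9e-05 for sos-1 without controls 1 and 3 and 48 h library 1. At 48 h against 2 h, folds that took the other sign were 0.039 for gap-3 with the length trend removed, 0.0049 for gap-3 with edgeR, 0.0029 for gap-3 with DESeq2, and 0.13 for mpk-1, 0.11 for sos-1, 0.18 for gap-3 and 0.0099 for lst-1 without controls 1 and 3 and 48 h library 1. At 48 h against control, folds that took the other sign were -0.00037 for let-60 and -0.13 for sos-1 without controls 1 and 3. At 4 h against 2 h, folds that took the other sign were 0.058 for mek-2, 0.068 for lst-1 and 0.081 for sygl-1 with centring, 0.053 for mek-2, 0.061 for lst-1 and 0.080 for sygl-1 with the length trend removed, 0.053 for mek-2, 0.064 for lst-1 and 0.099 for sygl-1 with edgeR, and 0.054 for mek-2, 0.065 for lst-1 and 0.091 for sygl-1 with DESeq2. The cause of these changes was not tested.

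As to the replicate numbers, same-numbered deviations of the 48 h and control libraries correlated at 0.69, 0.43, -0.42 and 0.58, so the numbers were not taken to pair the libraries, and not every library correlated best with its own number. With the replicate block, 4 members passed at 48 h against control (lip-1, with limma adjusted p = 0.0258, lin-45, ksr-2 and sem-5) where 1083 genes did, and lip-1 passed at 48 h against 2 h, where 233 genes did, and 644 genes passed at 4 h against 2 h. The block turned the sign of some folds, to -0.086 for lin-45, -0.058 for let-60 and -0.14 for ksr-2 at 48 h against 2 h, and to 0.064 for mek-2, 0.027 for ksr-2, 0.11 for lst-1 and 0.061 for sygl-1 at 4 h against 2 h.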

Other observations

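The p38 kinases form a stress-activated branch of the MAP kinase family. All 3 p38 genes had higher mean levels at 48 h than in controls, and all are scarce transcripts in this tissue. Only pmk-3 had a control mean above the 1 CPM of the filter on low values, so only pmk-3 is given with a test. Whether the 3 differences are independent of each other was not tested, so they are not read as 3 separate rises. The level of the JNK-type kinase gene kgb-1 was 2.79 ± 0.365 CPM at 48 h and 0.612 ± 0.112 CPM in controls (SD, n = 4 each). It is given as levels with no test, because it passed the filter on low values only through its 48 h libraries, and reads shared with its close paralog kgb-2 are uncertain.

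The pmk-3 level was 7.74 ± 1.62 CPM at 48 h and 3.56 ± 0.553 CPM in controls (SD, n = 4 each). Its log2 fold change was 0.93 (limma adjusted p = 0.00624). The pmk-2 level was 2.56 ± 0.231 CPM at 48 h and 0.941 ± 0.310 CPM in controls, and that of pmk-1 was 2.01 ± 0.0891 and 0.798 ± 0.177 CPM. The control means of these 2 genes lay under the 1 CPM of the filter on low values. Their high 48 h libraries may thus have carried them into the test, so both are given as levels with no test. After centring, where 10.9% of genes were called, pmk-3 still rose. The dlk-1 transcript, which encodes an upstream kinase of the p38 branch, fell after centring (-1.05, limma adjusted p = 0.00477). At 4 h against 2 h none of the 8 tested genes of the p38 and JNK list passed. The list was chosen with earlier results of these data known, and no test compared it with the Ras-MAPK genes.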
